A study of Homo sapiens with 20 samples.

Results

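Unedited cells of H1, a widely used line of human embryonic stem cells, were compared at day 4 and day 0 of a culture that directs them towards endoderm. The day 4 cells (WT day 4) had grown in RPMI medium with B27 supplement and 50 ng/ml Activin A, and the day 0 cells (WT day 0) in mTeSR1, a medium that keeps such cells undifferentiated. Each day has 2 poly(A) RNA-seq libraries. These are 4 of the 12 RNA-seq libraries and of the 20 samples in the series, chosen by the WT, day 4 and day 0 labels and not by any measured value. The other 8 RNA-seq libraries come from KO1 and KO2, a pair of edited H1 lines labelled as knockouts of the long noncoding RNA gene DIGIT, with 2 libraries at each day. The 8 ChIP-seq samples are not analysed here. Basal medium, supplements, days in culture and Activin A all changed together between the days, so their parts in any difference cannot be told apart. Nothing in the labels says that replicate libraries came from separate cultures, so the p values measure only the spread between libraries.

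Activin A acts through the Nodal branch of the TGF-beta family. Its receptors phosphorylate SMAD2 and SMAD3, which enter the nucleus with SMAD4 and bind beside partner factors such as FOXH1 and EOMES. In human embryonic stem cells a moderate signal of this kind helps to keep the undifferentiated state, whereas a strong one moves the cells through a primitive streak-like stage to definitive endoderm, the source of gut, liver and pancreas. Many genes that the signal turns on code for secreted proteins that block Nodal, BMP or WNT ligands.

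The WT libraries held 13117737 and 15411604 counts at day 4, and 10147526 and 13769250 counts at day 0. Of 16792 features tested with edgeR, 8332 differed between the days at an adjusted p of 0.05 (49.6%). The higher ones numbered 4075 (24.3%) and the lower ones 4257 (25.4%). Counts of list members given below are to be read beside these shares of all features. At least 1 in size on the log2 scale were 1296 of the higher (7.72%) and 1784 of the lower features (10.6%). The 95% interval of the log2 change lay wholly between −0.5 and 0.5 for 4885 features (29.1%), called steady here. A steady feature can also pass the test as higher or lower, so these classes overlap. The steady class depends on depth, since it took 58.6% of features with at least 100 CPM (counts per 1000000 of the scaled library total) on average, 40.2% of those from 10 to 100 CPM and 4.04% of those from 1 to 10 CPM. The median log2 change over all tested features was −0.0038.

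Of the 6 genes set as markers of this comparison 5 rose and 1 fell. Their levels summed to 5187 and 4682 CPM in the day 4 libraries and to 113 and 112 CPM in the day 0 libraries, with CER1, SOX17, GATA6, EOMES and CXCR4 higher and IDO1 lower at day 4. CER1 made up 4188 and 3875 CPM of the sum at day 4, and IDO1 108 and 109 CPM of it at day 0. Of 7 markers of undifferentiated cells 6 fell and NANOG rose, with the calls of POU5F1, LIN28A and L1TD1 lost when some single library was left out, and their sum was 3541 and 3612 CPM at day 4 against 4458 and 4672 CPM at day 0. The short lists of markers for other cell types mostly gave lower sums at day 4. The sum for liver and gut was higher, and for blood the days overlapped. The longer lists did not all follow them. Their summed mean levels were higher at day 4 for germ cells and neuroectoderm (1350 CPM against 909 CPM at day 0). Stroma was higher too (1578 CPM at day 4 against 1178 CPM at day 0), and blood differed little. They were lower at day 4 for mesoderm, trophoblast and amnion, endothelium, and liver and gut. In the longer mesoderm list 9 of 19 tested genes rose and 5 fell. In the short lists the markers of neuroectoderm summed to 6.94 and 8.06 CPM at day 4 and to 14.7 and 15.5 CPM at day 0. Those of trophoblast and amnion summed to 1.83 and 1.29 CPM at day 4 and to 8.04 and 8.55 CPM at day 0, with ELF5 at 0 on both days. The mesoderm markers summed to 3.51 and 2.13 CPM at day 4 and to 4.65 and 4.38 CPM at day 0. The 4 endothelial markers summed to 146 and 157 CPM at day 4 and to 257 and 259.6 CPM at day 0, with KDR and TEK called lower and PECAM1 at 0 in every library. The 5 markers of fibroblasts and stroma summed to 106 and 86.9 CPM at day 4 and to 166 and 142 CPM at day 0, with COL1A1 lower and DCN at 0 at day 0. Those of germ cells summed to 2.21 and 4.12 CPM at day 4 and to 6.20 and 6.64 CPM at day 0, with DAZL lower. Blood markers summed to 0.839 and 1.10 CPM at day 4 and to 1.36 and 0.989 CPM at day 0. Markers of liver and gut summed to 6.71 and 9.22 CPM at day 4 and to 2.91 and 6.29 CPM at day 0, with ALB and HNF4A among the called genes and TTR at 0 at day 4. AFP, which was not called, made up 2.59 and 5.41 CPM of this sum at day 4 and 2.32 and 4.87 CPM at day 0. Of the 20 tested genes in the longer liver and gut list 6 rose and 9 fell (5 with DESeq2). In bulk RNA a lower level may come from fewer cells of a type or from less RNA per cell, and these cannot be told apart. The part of other cell types in the results was not tested.

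Most definitive endoderm genes rose. Of 63 tested 52 rose and 3 fell, with a median log2 change of 2.56. EOMES, the T-box factor of mesendoderm, had 488 and 361 CPM in the day 4 libraries, against 0.775 and 0.212 CPM in the day 0 libraries. SOX17, which codes for a transcription factor that endoderm needs, had 147 and 129 CPM in the day 4 libraries, against 0.581 and 0.353 CPM in the day 0 libraries. CXCR4, a chemokine receptor used to sort definitive endoderm, had 164 and 139 CPM in the day 4 libraries, against 1.65 and 1.62 CPM in the day 0 libraries. In each of these 3 genes both day 4 libraries lay far above both day 0 libraries, and the log2 changes were 9.85 (SE 0.25, adjusted p = 4.3e-13), 8.23 (SE 0.24, adjusted p = 1.41e-12) and 6.53 (SE 0.2, adjusted p = 2.29e-12). For EOMES the log2 change was 10.93 (WT day 0 replicate 1 left out) and 9.1 (WT day 0 replicate 2 left out). The endoderm transcription factor gene GATA6 had 1 count over both day 0 libraries and 186 CPM at day 4, a level 4526 times that of day 0 (95% interval from counting error 812 to 178794). ANKRD1, a target of the Hippo pathway effector YAP that was also on the endoderm list, had 2 counts over both day 0 libraries and 27.1 CPM at day 4, a level 324 times that of day 0 (95% interval from counting error 89.4 to 2681). The endoderm list's losses included NR5A2 (−1.27 on the log2 scale) and ELF3 (−0.61). The claudin gene CLDN6 was steady at 659 CPM at day 4 against 608 CPM at day 0.

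**Figure D1:**
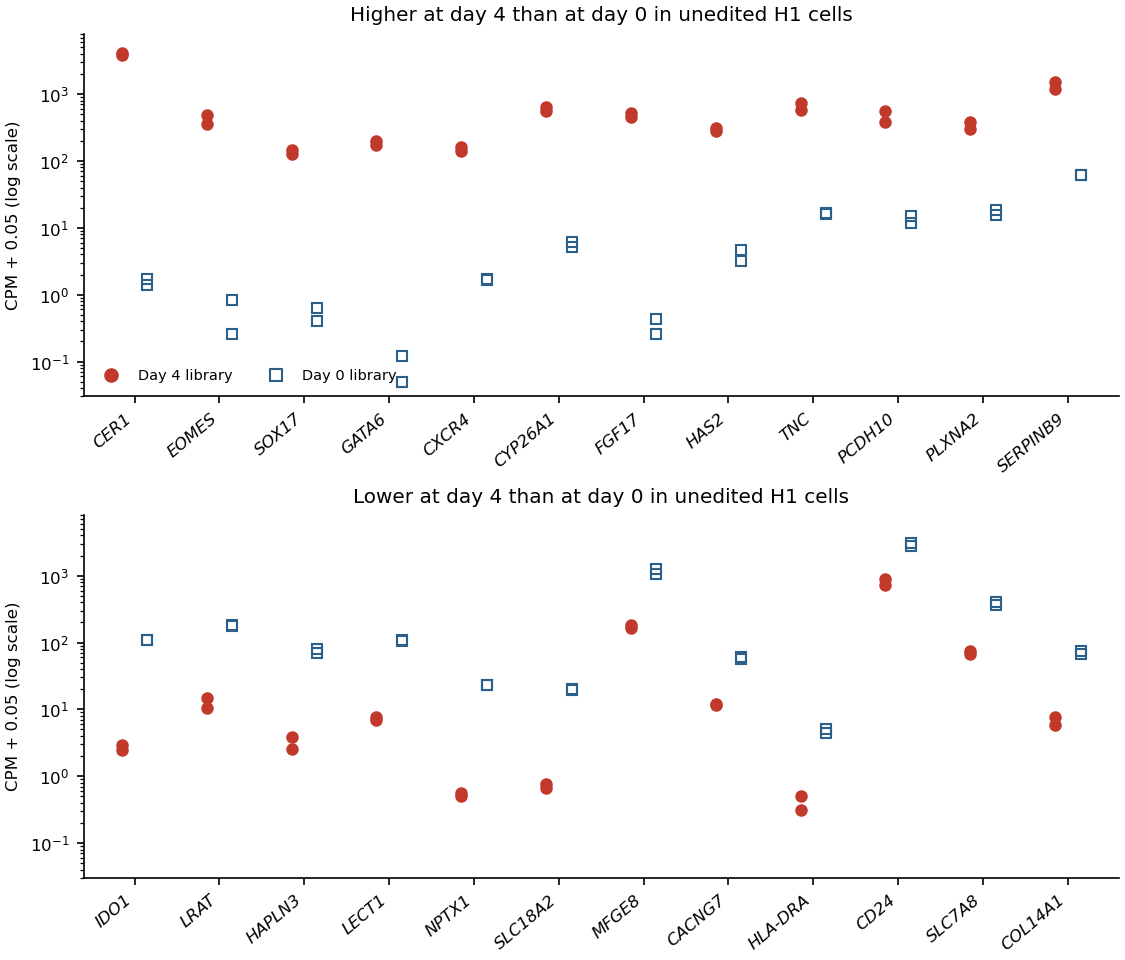
Normalised level of 24 genes in each of the 4 unedited H1 libraries, as CPM plus 0.05 on a log axis; filled circles are the day 4 libraries, drawn left of the open squares of the day 0 libraries, and replicate points often overlap. In all 24 genes the 2 days are separated by more than the distance between replicates, from CER1 at 4032 CPM at day 4 against 1.49 CPM at day 0 to COL14A1 at 6.8 CPM at day 4 against 70.8 CPM at day 0.

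Promoters are printed for 4 of the genes with steep gains, to show the motifs that were counted over all promoters. Each is the RefSeq window of 300 bases on GRCh38.p14, from 250 bases before the annotated start to 50 after it, read 5′ to 3′ on the strand of the gene. In CER1 (chr9:14722684-14722983, minus strand) the capitals mark 2 matches to AATNNACA, the form bound by the SMAD partner FOXH1. In EOMES (chr3:27722274-27722573, minus strand), DKK1 (chr10:52314031-52314330, plus strand) and GSC (chr14:94770064-94770363, minus strand) they mark the TATA box letters TATAAA, on either strand. The TATA letters begin 31 bases before the start in EOMES, 30 before it in DKK1 and 155 before it in GSC.
CER1: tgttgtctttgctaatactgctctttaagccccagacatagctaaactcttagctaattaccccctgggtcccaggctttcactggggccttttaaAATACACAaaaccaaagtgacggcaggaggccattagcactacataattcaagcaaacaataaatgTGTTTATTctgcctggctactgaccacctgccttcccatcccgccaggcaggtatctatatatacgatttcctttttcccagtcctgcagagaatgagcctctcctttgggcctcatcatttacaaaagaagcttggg
EOMES: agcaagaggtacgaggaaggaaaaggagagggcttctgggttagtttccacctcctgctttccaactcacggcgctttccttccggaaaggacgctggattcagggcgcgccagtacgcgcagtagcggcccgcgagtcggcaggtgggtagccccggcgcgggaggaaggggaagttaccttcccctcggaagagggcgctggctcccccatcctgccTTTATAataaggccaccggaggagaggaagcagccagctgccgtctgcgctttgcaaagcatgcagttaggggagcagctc
DKK1: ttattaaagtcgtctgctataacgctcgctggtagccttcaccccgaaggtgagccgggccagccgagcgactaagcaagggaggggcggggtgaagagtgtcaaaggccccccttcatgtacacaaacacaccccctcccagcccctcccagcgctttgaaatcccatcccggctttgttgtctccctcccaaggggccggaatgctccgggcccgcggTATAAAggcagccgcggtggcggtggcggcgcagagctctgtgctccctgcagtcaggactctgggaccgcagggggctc
GSC: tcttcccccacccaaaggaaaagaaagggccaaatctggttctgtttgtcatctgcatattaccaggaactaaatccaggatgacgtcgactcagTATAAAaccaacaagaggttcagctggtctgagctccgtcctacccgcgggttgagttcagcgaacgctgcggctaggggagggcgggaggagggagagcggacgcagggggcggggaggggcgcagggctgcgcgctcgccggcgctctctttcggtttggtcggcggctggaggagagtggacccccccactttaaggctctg

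The first RefSeq window of each symbol was taken, which 11159 tested symbols had. On either strand TATAAA occurred in 27 of 144 promoters of genes called at least 3 higher on the log2 scale (18.8%), in 4.72% of those called at least 3 lower, in 3.92% of steady genes and in 6.12% of all 11159. The shares among all genes called at least 1 higher and at least 1 lower were 9.88% and 8.42%. AATNNACA followed the same order at the top, with 13.9% at 3 or more higher, 4.72% at 3 or more lower, 4.63% of steady genes and 5.54% of all. CGGAAG, the core of ETS factor sites, ran the other way, in 13.2% of the steepest gains, 11% of the steepest losses, 40.2% of steady genes and 30.1% of all. CCAAT stood in 39.6% of the steepest gains, 37.8% of the steepest losses and 38.6% of steady genes. AGATAA, the GATA factor form, stood in 11.8%, 9.45% and 4.27% of the same classes. Over the 27305 symbols in the RefSeq table, tested or not, the TATA, FOXH1, GATA, ETS and CCAAT letters stood in 12%, 11.1%, 10.5%, 19.9% and 35.7%. Promoters with fewer than 10 CG pairs made up 31.2% of the steepest gains, 39.4% of the steepest losses, 6.33% of steady genes and 14.8% of all. These classes and motifs were chosen after the changes were known and carry no test; steady genes are also the more abundant ones. A match is a match of letters only.

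**Figure D2:**
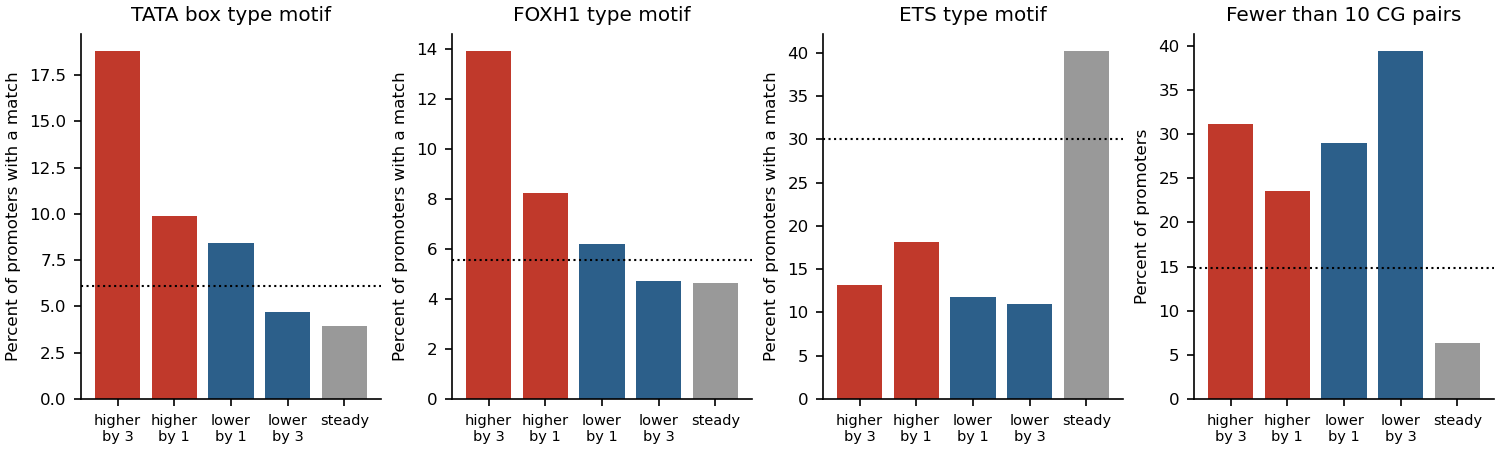
Percent of RefSeq promoter windows (300 bases) with a TATAAA, AATNNACA (FOXH1 type) or CGGAAG (ETS type) match, and percent with fewer than 10 CG pairs, in genes called higher or lower at day 4 by at least 3 or at least 1 on the log2 scale and in steady genes; the classes at 1 include those at 3 and dotted lines give all 11159. TATA and FOXH1 type matches stand highest in the steepest gains (18.8% and 13.9%), ETS matches in steady genes (40.2%).

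Genes of the primitive streak and mesendoderm, the stage before endoderm, were also high at day 4. Of 30 tested 22 rose and 3 fell, and the median log2 change was 4.35, both for the list and for its 15 secreted signals, of which 12 rose. FGF17, a fibroblast growth factor of the streak, had 520.1 and 449 CPM in the day 4 libraries, against 0.387 and 0.212 CPM in the day 0 libraries. MIXL1, a homeobox factor of mesendoderm, had 67 and 52.3 CPM in the day 4 libraries, against 0.0968 and 0.283 CPM in the day 0 libraries. T, the brachyury factor of early mesoderm, had 14.6 and 12.3 CPM in the day 4 libraries, against 0.194 and 0.212 CPM in the day 0 libraries. All day 4 values of the 3 genes exceeded all day 0 values, with log2 changes of 10.68 (SE 0.25, adjusted p = 3.19e-13), 8.13 (SE 0.27, adjusted p = 6.36e-12) and 5.98 (SE 0.33, adjusted p = 1.36e-09). For MIXL1 it was 9.15 (WT day 0 replicate 2 left out). Against them TBX6, a T-box gene of paraxial mesoderm, fell to 1.09 CPM at day 4 against 2.21 CPM at day 0 (−1.0 at SE 0.36 and adjusted p = 0.0321), a call lost without some libraries (adjusted p = 0.0899 (WT day 4 replicate 1 left out), 0.144 (WT day 4 replicate 2 left out) and 0.173 (WT day 0 replicate 1 left out)) and with DESeq2 (adjusted p = 0.0804). The peptide hormone gene APLN fell (−2.49 on the log2 scale). The lower genes of the list numbered 1 (WT day 4 replicate 1 or WT day 0 replicate 1 left out). Over the T-box family 7 of 10 tested genes rose and TBX6 fell, and all 5 tested GATA genes rose, with GATA4 at 68.1 CPM at day 4 against 0.251 CPM at day 0 and GATA3 at 2.75 CPM at day 4 against 0.502 CPM at day 0. The higher T-box genes numbered 4 (WT day 0 replicate 2 left out). None of 4 tested HOX genes passed the threshold, and the other HOX genes, of 39 in the files, had too few counts to be tested.

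The transcription factors listed for the undifferentiated state did not fall together, though some of the gains were genes with little RNA at day 0, such as KLF5 and PRDM1. Of 33 tested 11 rose and 12 fell, with a median of −0.027. KLF5, a zinc finger factor of early embryos, had 29.8 and 28.5 CPM in the day 4 libraries, against 1.36 and 2.26 CPM in the day 0 libraries. PRDM1, which codes for BLIMP1 and is used by endoderm and germ cells, had 94.4 and 80.9 CPM in the day 4 libraries, against 1.26 and 1.06 CPM in the day 0 libraries. OTX2, a homeobox factor of epiblast and endoderm, had 269 and 241 CPM in the day 4 libraries, against 44.7 and 45.5 CPM in the day 0 libraries. The day 4 and day 0 libraries did not overlap in any of the 3, and the log2 changes were 3.96 (SE 0.22, adjusted p = 1.26e-09), 6.25 (SE 0.23, adjusted p = 1.94e-11) and 2.5 (SE 0.1, adjusted p = 5.75e-11). MYCN and HESX1 fell (−1.89 and −1.05 on the log2 scale). SOX2 was also called lower, with 105 and 118 CPM in the day 4 libraries, against 200 and 232 CPM in the day 0 libraries. Steady members were POU5F1 (−0.22), SALL4 (0.28), ZIC2 (0.25), VRTN (−0.097), TCF7L1 (−0.027) and ETV4 (0.086). Of these VRTN, TCF7L1 and ETV4 did not pass the test, and the calls of POU5F1 (adjusted p = 0.143 (WT day 4 replicate 1 left out), 0.0743 (WT day 4 replicate 2 left out), 0.153 (WT day 0 replicate 1 left out) and 0.0507 (WT day 0 replicate 2 left out)) and ZIC2 (0.131 (WT day 4 replicate 1 left out) and 0.0807 (WT day 0 replicate 1 left out)) were lost without single libraries. RNA-binding and chromatin genes of stem cells behaved otherwise, since 15 of 18 fell and none rose (median −0.97). DPPA2 fell (−2.44 on the log2 scale), and LIN28A (−0.25) and L1TD1 (−0.27) fell too, by less than the limit of 0.5 used for steady genes. The call was lost at adjusted p = 0.0541 (WT day 4 replicate 2 left out) for LIN28A and at 0.263 (WT day 4 replicate 1 left out), 0.0554 (WT day 4 replicate 2 left out) and 0.369 (WT day 0 replicate 2 left out) for L1TD1. Of the 20 surface and secreted stem cell genes 13 fell and 6 rose, with the largest CPM loss of all named genes in CD24, a glycosylated surface protein. CD24 had 714 and 905 CPM in the day 4 libraries, against 2753 and 3129 CPM in the day 0 libraries. IDO1, which degrades tryptophan, had 2.67 ± 0.325 CPM at day 4 and 109 ± 0.412 CPM at day 0.

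Among Nodal and Activin pathway genes 28 of 46 rose and 3 fell (median 0.48). In this and the other signalling lists some genes are named for their role, chosen after their values were seen. Of the ligands, NODAL had 332 and 285 CPM in the day 4 libraries, against 6.39 and 3.81 CPM in the day 0 libraries. The related ligand gene GDF3 had 66.8 ± 1.43 CPM at day 4 and 13.1 ± 1.5 CPM at day 0, and TGFB1 69.6 ± 9.51 CPM at day 4 and 9.64 ± 1.44 CPM at day 0. All 3 rose (5.96 at SE 0.15 and adjusted p = 4.3e-13 for NODAL), while TGFB2 fell (−1.91 on the log2 scale). The receptor genes moved less, with a median of 0.16 and 3 of 8 steady, among them ACVR2B at 190.2 CPM at day 4 against 185 CPM at day 0. Of 16 antagonists 11 rose and 2 fell. LEFTY1, a secreted Nodal inhibitor, had 346 and 416 CPM in the day 4 libraries, against 2.23 and 2.47 CPM in the day 0 libraries. LEFTY2, its close paralog, had 301 and 377 CPM in the day 4 libraries, against 3.49 and 2.54 CPM in the day 0 libraries. Their separate values depend on how reads that both copies share were handled, but their day 4 libraries lay above their day 0 libraries in both. The activin-binding protein FST had 45.9 ± 0.563 CPM at day 4 and 8.1 ± 0.463 CPM at day 0, and the inhibitory SMAD7 59.8 ± 1.04 CPM at day 4 and 17.4 ± 1.95 CPM at day 0. Among the transducers, SMAD4 (−0.062) and SMAD2 (0.28) were steady. The partner factor FOXH1 had 118 ± 9.1 CPM at day 4 and 80.1 ± 8.24 CPM at day 0 (0.57 at SE 0.091 and adjusted p = 9.79e-05).

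Of 42 BMP genes 28 rose and 8 fell (5 with DESeq2). Of the antagonists 9 of 11 were higher (median 2.51) and of the targets 9 of 12 (median 1.62), whereas of 8 ligands 3 rose and 2 fell. BMP2, a ligand, had 116 and 84.1 CPM in the day 4 libraries, against 3.1 and 3.81 CPM in the day 0 libraries. GREM1, a secreted BMP blocker, had 27.2 and 26.4 CPM in the day 4 libraries, against 0.387 and 1.27 CPM in the day 0 libraries. CHRD, which codes for the BMP blocker chordin, had 12.1 and 10.1 CPM in the day 4 libraries, against 1.36 and 0.918 CPM in the day 0 libraries. The groups did not overlap in these genes (4.83 at SE 0.19 and adjusted p = 3.65e-11 for BMP2, 4.89 at SE 0.25 and adjusted p = 5.04e-10 for GREM1 and 3.31 at SE 0.35 and adjusted p = 1.42e-06 for CHRD). For GREM1 the log2 change was 6.1 (WT day 0 replicate 2 left out). Opposite cases were BMP6, a ligand at 0.595 CPM at day 4 against 4.0 CPM at day 0, and CHRDL1, a chordin-like blocker at 4.3 CPM at day 4 against 33.9 CPM at day 0. The target genes ID1 and ID2, inhibitors of bHLH factors, rose by 1.94 and 1.02, but ID3 fell (−0.43 on the log2 scale), a call lost at adjusted p = 0.0722 (WT day 4 replicate 2 left out) and 0.0606 (WT day 0 replicate 1 left out). The lower BMP genes numbered 3 (WT day 4 replicate 1 left out) and 4 (WT day 4 replicate 2 or WT day 0 replicate 1 left out).

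WNT genes moved both ways. Of 68 tested 27 rose and 16 fell. Of the 14 ligands 4 rose and 3 fell, of the 20 receptor genes 6 rose and 8 fell (median −0.19), and of the 16 transducers and targets 9 rose and 1 fell. WNT3, a ligand of the streak, had 38.1 and 34.1 CPM in the day 4 libraries, against 1.45 and 1.06 CPM in the day 0 libraries. LGR5, a receptor of R-spondins, had 31.4 and 22.5 CPM in the day 4 libraries, against 0.387 and 1.7 CPM in the day 0 libraries. ROR2, a receptor tyrosine kinase for WNT5A, had 133 and 117 CPM in the day 4 libraries, against 8.52 and 7.42 CPM in the day 0 libraries. All 3 rose with no overlap between the days, by 4.87, 4.56 and 3.98 on the log2 scale. For LGR5 the log2 change was 6.1 (WT day 0 replicate 2 left out). Within the same families other members fell, as in LGR4 (−1.25) and ROR1 (−1.23). The frizzled receptors split as well, with FZD8 and FZD5 higher by 2.66 and 2.11 and FZD10 and FZD7 lower (−1.22 and −0.81 on the log2 scale). Of 19 antagonists 8 rose and 4 fell. DKK1, which blocks the co-receptor LRP6, had 71.2 and 52.2 CPM in the day 4 libraries, against 0.194 and 0.141 CPM in the day 0 libraries. SFRP1, which binds WNT ligands, had 651 and 584 CPM in the day 4 libraries, against 1052 and 1120.2 CPM in the day 0 libraries. DKK1 rose (8.48 at SE 0.35 and adjusted p = 4.37e-11) and SFRP1 fell (−0.81 at SE 0.085 and adjusted p = 1.38e-06), as did WIF1, another ligand-binding blocker (−2.92). The summed level of the antagonists was 1183 CPM at day 4 and 1823 CPM at day 0, and SFRP1 alone made up 618 CPM of it at day 4 and 1086 CPM at day 0. The target genes AXIN2 and SP5 rose by 1.34 and 6.43. LRP6 and CCND1 were steady.

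FGF ligands moved both ways. Of 17 tested 8 rose and 6 fell, and of the 9 receptor genes 4 rose and 3 fell. FGF8, a ligand of the streak, had 59.6 and 44.6 CPM in the day 4 libraries, against 0.387 and 0.283 CPM in the day 0 libraries. FGF4, a ligand of the early embryo, had 4.04 and 2.96 CPM in the day 4 libraries, against 0.194 and 0.141 CPM in the day 0 libraries. FGF19, a ligand used later in gut and bile acid control, had 5.11 and 6.12 CPM in the day 4 libraries, against 26.7 and 26.3 CPM in the day 0 libraries. FGF8 and FGF4 rose (7.27 at SE 0.25 and adjusted p = 6.36e-12 and 4.34 at SE 0.52 and adjusted p = 6.14e-06) and FGF19 fell (−2.23 at SE 0.13 and adjusted p = 3.12e-09), with no overlap between the days. FGF2, an added factor of many stem cell media, fell (−0.92 on the log2 scale), as did FGFR1 (−0.65), FGFR2 (−0.91) and FGFR4 (−1.55). Of 19 feedback and target genes of ERK 9 rose and 2 fell, 6 and 1 of them by at least 1 on the log2 scale. The phosphatase gene DUSP4 rose by 1.25, DUSP6 fell (−0.49 on the log2 scale), and SPRY4, SPRY1, SPRED1, ETV4 and ETV5 were steady at 0.082, 0.062, 0.11, 0.086 and 0.14.

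**Figure D3:**
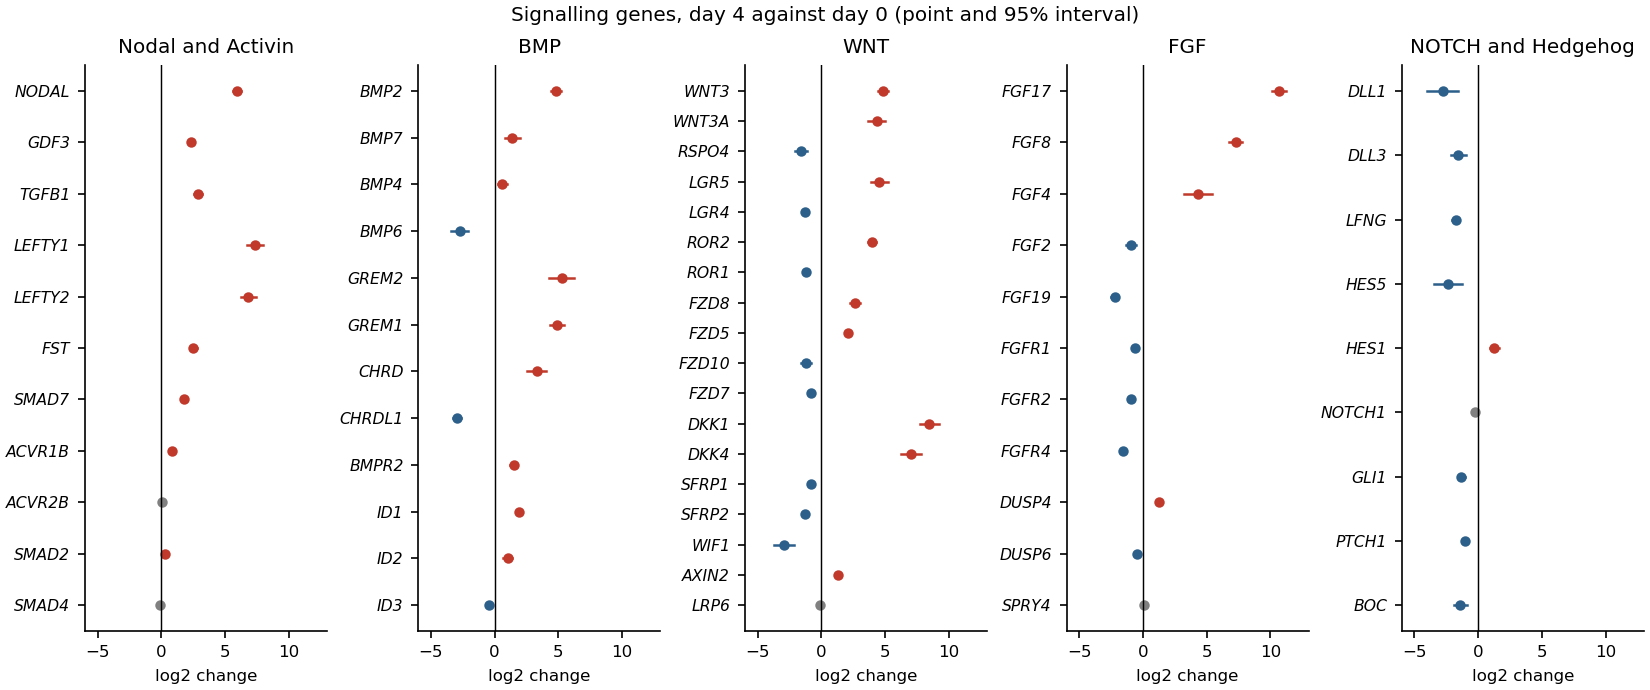
Log2 change at day 4 against day 0 in unedited H1 cells for genes of 5 pathways, with 95% intervals from the edgeR fit of 12 libraries; red points passed the test as higher, blue as lower and grey did not pass. Gains include FGF17 (10.68), DKK1 (8.48), LEFTY1 (7.33) and the receptor LGR5 (4.56), and the NOTCH and Hedgehog genes drawn are lower apart from HES1 (1.25) and NOTCH1, which did not pass.

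Among NOTCH and Hedgehog genes the losses outnumbered the gains. Of 24 NOTCH genes 13 fell and 5 rose (median −0.45), and of 13 Hedgehog genes 8 fell and 2 rose (median −0.46). HES3, a repressor of the HES family, had 0.153 and 0.193 CPM in the day 4 libraries, against 10.7 and 10.9 CPM in the day 0 libraries. DLL1, a NOTCH ligand, had 0.687 and 0.193 CPM in the day 4 libraries, against 3.2 and 2.75 CPM in the day 0 libraries. GLI1, a transcription factor and readout of Hedgehog signalling, had 14.3 and 12.2 CPM in the day 4 libraries, against 35.2 and 30.7 CPM in the day 0 libraries. The days did not overlap in any of the 3 (−5.88 at SE 0.36 and adjusted p = 4.38e-09, −2.78 at SE 0.57 and adjusted p = 0.000783 and −1.31 at SE 0.14 and adjusted p = 2.38e-06). For DLL1 the log2 change was −3.86 (WT day 4 replicate 1 left out) and −2.07 (WT day 4 replicate 2 left out). The higher NOTCH genes numbered 3 (WT day 4 replicate 1 or WT day 4 replicate 2 or WT day 0 replicate 1 left out). They were also 3 with upper-quartile factors and with DESeq2. The Hedgehog receptor gene PTCH1 and the co-receptor gene BOC fell (−1.06 and −1.41 on the log2 scale). HES1, also a NOTCH target, went the other way with 34.3 CPM at day 4 against 14.3 CPM at day 0. HEY1, NOTCH3 and RFNG of the NOTCH list were called higher too. So was NRIP1, which codes for a nuclear receptor interacting protein. Its place in the list, and so in the count of higher NOTCH genes, is doubtful. The receptors NOTCH1 and NOTCH2 were steady. Of 18 retinoid genes 6 rose and 6 fell. CYP26A1, which breaks down retinoic acid, had 644 and 558 CPM in the day 4 libraries, against 5.13 and 6.0 CPM in the day 0 libraries. LRAT, which stores retinol as ester, had 14.8 and 10.4 CPM in the day 4 libraries, against 175 and 180.2 CPM in the day 0 libraries. CYP26A1 rose (6.74 at SE 0.14 and adjusted p = 1.57e-13) and LRAT fell (−3.83 at SE 0.15 and adjusted p = 2.77e-11), as did DHRS3, which turns retinal back into retinol (−2.45). Of 20 Hippo pathway genes 16 rose and 2 fell, although most moved little (median 0.49). AMOTL1, AMOTL2 and F3 rose by 1.8, 1.71 and 1.99, and CTGF and CYR61 by 0.87 and 0.79. The lower Hippo genes numbered 1 (WT day 4 replicate 2 or WT day 0 replicate 1 or WT day 0 replicate 2 left out).

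The antigen presentation genes were lower at day 4. Of 21 HLA genes tested 15 fell and none rose (median −0.46). HLA-DRA, a class II chain, had 0.458 and 0.258 CPM in the day 4 libraries, against 5.04 and 4.31 CPM in the day 0 libraries. HLA-DOA, which limits class II loading, had 18.8 and 17.6 CPM in the day 4 libraries, against 54 and 52.8 CPM in the day 0 libraries. HLA-B, a class I heavy chain, had 114 and 121 CPM in the day 4 libraries, against 154 and 149 CPM in the day 0 libraries. The days did not overlap in these genes (−3.7 at SE 0.38 and adjusted p = 1.33e-06 for HLA-DRA, −1.56 at SE 0.13 and adjusted p = 9.58e-08 for HLA-DOA and −0.37 at SE 0.076 and adjusted p = 0.000771 for HLA-B), but reads that HLA paralogs share leave their separate values uncertain. The lower HLA genes numbered 8 (WT day 0 replicate 1 left out). CD74, the invariant chain that escorts class II, had 9.26 ± 1.79 CPM at day 4 and 41 ± 0.975 CPM at day 0. The immunoproteasome subunits PSMB8, PSMB9 and PSMB10 fell to 2.99 CPM at day 4 against 16.6 CPM at day 0, 0.167 CPM at day 4 against 1.3 CPM at day 0 and 11.3 CPM at day 4 against 19.3 CPM at day 0. For PSMB10 the call was lost at adjusted p = 0.121 (WT day 4 replicate 1 left out) and 0.114 (WT day 0 replicate 1 left out). Of 38 proteasome subunits 8 rose, 7 fell and 29 were steady, some of the steady ones being also called, and with upper-quartile factors 6 rose and 9 fell. The higher subunits numbered 5 (WT day 4 replicate 1 or WT day 0 replicate 2 left out). The lower subunits numbered 4 (WT day 4 replicate 1 left out). That HLA genes, CD74 and these subunits share antigen presentation was seen after their values. Interferon-stimulated genes as a list did not move one way, 4 of 13 higher and 6 lower, with MX1 and IFI6 lower (−2.62 and −1.78 on the log2 scale).

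In most ion channel and transmitter receptor lists more genes were lower than higher. Of 36 calcium and sodium channel genes 21 fell and 2 rose (median −0.69), of 76 potassium channel genes 34 fell and 20 rose (11 with DESeq2, median −0.56), and of 57 glutamate, GABA and acetylcholine receptor genes 20 fell and 8 rose (median −0.50). The called shares of these lists were 63.9%, 71.1% and 49.1% in that order, against 49.6% of all features. Of 16 TRP channel genes 4 rose and 4 fell. CACNG7, a channel subunit that also escorts AMPA receptors, had 11.5 and 11.9 CPM in the day 4 libraries, against 60.2 and 56.4 CPM in the day 0 libraries. GRIA4, an AMPA receptor subunit, had 1.22 and 1.29 CPM in the day 4 libraries, against 14.6 and 16 CPM in the day 0 libraries. KCNG1, a modifier subunit of potassium channels, had 116 and 96.6 CPM in the day 4 libraries, against 15.5 and 12.4 CPM in the day 0 libraries. CACNG7 and GRIA4 fell (−2.31 at SE 0.12 and adjusted p = 4.35e-10 and −3.6 at SE 0.24 and adjusted p = 1.15e-08), and KCNG1 rose (2.94 at SE 0.14 and adjusted p = 3.05e-10), each with no overlap. The higher potassium channel genes numbered 13 (WT day 4 replicate 2 left out) and 11 (WT day 0 replicate 2 left out). The higher receptor genes numbered 5 (WT day 0 replicate 2 left out). The vesicle genes SLC18A2 and SLC30A3 were among the steepest losses. SLC18A2, the vesicular monoamine transporter, had 0.61 and 0.709 CPM in the day 4 libraries, against 19.2 and 19.8 CPM in the day 0 libraries. SLC30A3, a zinc transporter of synaptic vesicles, had 0.687 and 0.516 CPM in the day 4 libraries, against 14.8 and 14.5 CPM in the day 0 libraries. The neuronal pentraxin gene NPTX1 had 0.487 ± 0.0409 CPM at day 4 and 23.1 ± 0.488 CPM at day 0, and SEZ6, a neuronal membrane protein, 0.205 ± 0.0744 CPM at day 4 and 13.6 ± 1.69 CPM at day 0. The neuroectoderm list of transcription factors and markers was mixed, 11 of 22 lower and 6 higher, with SOX3 (−1.77) and POU3F1 (−1.78) lower and LHX5 (3.29) higher. Of 18 SOX genes 10 fell and 5 rose.

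Guidance genes were more often higher than lower. Of 74 ephrin, semaphorin, netrin and slit genes 35 rose and 16 fell (median 0.23). PLXNA2, a semaphorin receptor, had 381 and 301 CPM in the day 4 libraries, against 18.4 and 15.3 CPM in the day 0 libraries. SEMA3E, a secreted semaphorin, had 45.1 and 37.6 CPM in the day 4 libraries, against 2.23 and 2.19 CPM in the day 0 libraries. NTN1, which codes for netrin-1, had 103 and 92.7 CPM in the day 4 libraries, against 6.97 and 5.51 CPM in the day 0 libraries. The day 4 libraries lay above the day 0 libraries in all 3 (4.35 at SE 0.16 and adjusted p = 1.65e-11, 4.22 at SE 0.18 and adjusted p = 9.91e-11 and 3.98 at SE 0.19 and adjusted p = 2.12e-10), and EFNA1, an ephrin, fell (−2.18 on the log2 scale). The adhesion families were counted separately. Of 55 clustered protocadherins 10 rose and 4 fell, of 69 leucine-rich repeat surface proteins 14 rose and 21 fell, of 21 tetraspanins 7 rose and 8 fell, and of 20 classical and type II cadherins 7 rose and 5 fell. The higher clustered protocadherins numbered 6 (WT day 4 replicate 1 left out). The lower ones numbered 2 (WT day 0 replicate 2 left out). The lower cadherins numbered 2 (WT day 4 replicate 1 or WT day 0 replicate 1 or WT day 0 replicate 2 left out) and 3 (WT day 4 replicate 2 left out). The protocadherin gene PCDH10 had 469 ± 129 CPM at day 4 and 13.4 ± 2.17 CPM at day 0. Of the cadherins, CDH2 rose and CDH1 fell, with CDH2 (N-cadherin) at 808 CPM at day 4 against 71.8 CPM at day 0 and CDH1 (E-cadherin) at 334 CPM at day 4 against 489 CPM at day 0. Both differences passed the test (3.49 at SE 0.09 and adjusted p = 4.3e-13 and −0.55 at SE 0.078 and adjusted p = 3.13e-05). Integrins rose in 9 of 21 and fell in 5, with ITGA5, a fibronectin receptor chain, higher by 2.25 and ITGA6, a laminin receptor chain, lower (−1.9 on the log2 scale). The lower integrins numbered 3 (WT day 4 replicate 1 left out).

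The mesenchymal and motility list rose in 31 of 53 members and fell in 7 (median 0.60). TNC, the matrix protein tenascin-C, had 739 and 582 CPM in the day 4 libraries, against 15.8 and 16.7 CPM in the day 0 libraries. ZEB1, a repressor of epithelial genes, had 5.42 and 4.51 CPM in the day 4 libraries, against 0.968 and 0.353 CPM in the day 0 libraries. TNC and ZEB1 rose with no overlap (5.34 at SE 0.15 and adjusted p = 1.16e-12 and 2.98 at SE 0.54 and adjusted p = 0.000293), while S100A4, a calcium-binding protein often counted as mesenchymal, fell to 1.47 CPM at day 4 against 16.4 CPM at day 0. For ZEB1 the log2 change was 3.79 (WT day 0 replicate 1 left out) and 2.36 (WT day 0 replicate 2 left out). The epithelial side was not lost as a whole. Of 53 junction and simple epithelium genes 14 rose and 21 fell, KRT8, KRT18 and KRT19 rose by 1.88, 1.0 and 1.31, CLDN3 and CLDN4 fell (−1.33 and −1.8 on the log2 scale), and DSG2, F11R and ESRP1 were steady. Over 24 tested keratins 10 rose and 2 fell. The lower keratins numbered 1 (WT day 4 replicate 1 or WT day 0 replicate 2 left out).

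Matrix genes moved both ways. In the list of laminins, basement membrane and other matrix genes 21 of 62 rose and 23 fell (21 and 20 with WT day 0 replicate 1 left out), and of 43 collagens 22 rose and 11 fell (median 0.63). HAS2, which makes hyaluronan, had 311 and 279 CPM in the day 4 libraries, against 3.1 and 4.59 CPM in the day 0 libraries. COL5A2, a fibrillar collagen, had 1212 and 1085 CPM in the day 4 libraries, against 70.5 and 75.6 CPM in the day 0 libraries. COL6A1, a microfibrillar collagen, had 1048 and 864 CPM in the day 4 libraries, against 162 and 158 CPM in the day 0 libraries. These rose (6.22 at SE 0.17 and adjusted p = 5.75e-13, 3.97 at SE 0.12 and adjusted p = 2.16e-12 and 2.58 at SE 0.1 and adjusted p = 3.38e-11). HAPLN3, which links hyaluronan to proteoglycans, had 2.52 and 3.8 CPM in the day 4 libraries, against 81.3 and 68.9 CPM in the day 0 libraries. COL14A1, a collagen that binds fibrils, had 5.87 and 7.73 CPM in the day 4 libraries, against 67.2 and 74.3 CPM in the day 0 libraries. LECT1, which codes for chondromodulin, had 6.87 and 7.6 CPM in the day 4 libraries, against 108 and 106 CPM in the day 0 libraries. These fell (−4.54 at SE 0.16 and adjusted p = 1.23e-11, −3.37 at SE 0.14 and adjusted p = 7.83e-11 and −3.88 at SE 0.13 and adjusted p = 6.21e-12), and in all 6 genes the days stood apart. HAS3 fell (−1.82 on the log2 scale) as HAS2 rose. LAMC1, LAMA5, LAMA1, AGRN and COL18A1 were steady.

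Secreted and surface products changed in both directions. Of 86 proteases and inhibitors 41 rose and 27 fell. SERPINB9, an inhibitor of granzyme B, had 1525 and 1210.2 CPM in the day 4 libraries, against 62.5 and 62.1 CPM in the day 0 libraries. SERPINE2, an inhibitor of thrombin and urokinase, had 1226 and 1041 CPM in the day 4 libraries, against 105 and 101 CPM in the day 0 libraries. MFGE8, a milk fat globule protein that binds integrins, had 162 and 183 CPM in the day 4 libraries, against 1259 and 1052 CPM in the day 0 libraries. SERPINB9 and SERPINE2 rose (4.46 at SE 0.31 and adjusted p = 1.88e-08 and 3.46 at SE 0.1 and adjusted p = 1.87e-12) and MFGE8 fell (−2.74 at SE 0.1 and adjusted p = 1.98e-11). The trypsinogen genes PRSS1 and PRSS3, near-identical copies whose reads may be shared, had 26.1 and 17.1 CPM at day 4, and the surface antigen gene CD48 had 19.6 CPM. PRSS3 and CD48 had no counts at day 0, so with 3 counts over that day's libraries as the floor, day 4 was at least 141-fold higher for PRSS3 and at least 162-fold higher for CD48. Among peptide hormone genes 12 of 38 rose and 14 fell (11 with DESeq2), with PTHLH, parathyroid hormone-like hormone, at 3.2 CPM at day 4 against 0.0484 CPM at day 0 and NPPB, the natriuretic peptide BNP, at 14.8 CPM at day 4 against 0.251 CPM at day 0. PENK, the precursor of enkephalins, fell to 0.135 CPM at day 4 against 1.04 CPM at day 0. Of 19 chemokine genes 5 rose and 8 fell, with the ligand of CXCR4 among the lower ones, CXCL12 at 18.8 CPM at day 4 against 64.7 CPM at day 0. CXCR7, the second receptor of that ligand, rose to 56.1 CPM at day 4 against 1.47 CPM at day 0.

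Genes of central metabolism fell by small steps. Of 35 glycolysis genes 18 fell and 6 rose (median −0.29), of 31 TCA cycle genes 17 fell and 5 rose (median −0.28), of 38 complex I subunits 15 fell and 4 rose (median −0.18) and of 44 subunits of complexes III to V 19 fell and 2 rose (median −0.25). LDHB, which turns lactate and pyruvate into each other, had 968 and 1065 CPM in the day 4 libraries, against 1893 and 1928 CPM in the day 0 libraries. IDH2, the mitochondrial isocitrate dehydrogenase, had 19.5 and 24.7 CPM in the day 4 libraries, against 93.4 and 80.1 CPM in the day 0 libraries. SLC2A3, a glucose transporter, had 2012 and 1530.3 CPM in the day 4 libraries, against 714 and 753 CPM in the day 0 libraries. LDHB and IDH2 fell (−0.91 at SE 0.068 and adjusted p = 3.8e-08 and −1.96 at SE 0.13 and adjusted p = 8.27e-09), and SLC2A3 rose (1.27 at SE 0.11 and adjusted p = 1.65e-07). PDK1, which holds back pyruvate dehydrogenase, rose by 1.66, and its paralog PDK3 fell (−1.26 on the log2 scale). ALDOA, ENO1, PGK1, GAPDH and TPI1 were steady, with log2 changes between −0.32 and 0.21. Of these GAPDH and TPI1 were also called lower, and both calls were lost when some single library was left out. The lower TCA cycle genes numbered 10 (WT day 0 replicate 1 left out). The higher ones numbered 3 (WT day 4 replicate 1 or WT day 0 replicate 1 left out). The lower complex I subunits numbered 5 (WT day 4 replicate 1 left out), 9 (WT day 4 replicate 2 left out) and 7 (WT day 0 replicate 1 left out). The higher ones numbered 0 (WT day 4 replicate 1 left out) and 1 (WT day 0 replicate 2 left out). The higher subunits of complexes III to V numbered 1 (WT day 0 replicate 2 left out).

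Cholesterol and fatty acid synthesis genes fell in the main. Of 33 cholesterol genes tested 25 fell and 2 rose (median −0.50), and of 21 fatty acid synthesis genes 15 fell and 2 rose (median −0.60). SCD, a desaturase, had 1404 and 1638 CPM in the day 4 libraries, against 2255 and 2341 CPM in the day 0 libraries. FASN, fatty acid synthase, had 797 and 776 CPM in the day 4 libraries, against 1514 and 1296 CPM in the day 0 libraries. INSIG1, which holds the SREBP activators in the endoplasmic reticulum, had 31.6 and 36.2 CPM in the day 4 libraries, against 108 and 115.1 CPM in the day 0 libraries. All 3 fell (−0.6 at SE 0.078 and adjusted p = 1.48e-05, −0.84 at SE 0.085 and adjusted p = 9.9e-07 and −1.72 at SE 0.17 and adjusted p = 6.17e-07) with no overlap. ABCG1, which exports cholesterol, fell to 1.2 CPM at day 4 against 7.81 CPM at day 0. The exceptions were SOAT1 and TM7SF2, both called higher. SOAT1, which esterifies cholesterol, rose to 25.3 CPM at day 4 against 6.76 CPM at day 0. ELOVL2, an elongase of long polyunsaturated fatty acids, rose to 26.6 CPM at day 4 against 1.68 CPM at day 0, while LPL, lipoprotein lipase, fell to 1.00 CPM at day 4 against 15 CPM at day 0. FADS1 was steady.

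Genes of amino acid handling moved both ways. Of 29 amino acid transporter genes 9 rose and 11 fell (median 0.034). SLC7A5, a transporter of large neutral amino acids, had 2404 and 2089.5 CPM in the day 4 libraries, against 1094 and 911 CPM in the day 0 libraries. SLC7A8, its paralog, had 67.2 and 74 CPM in the day 4 libraries, against 410.1 and 367 CPM in the day 0 libraries. SLC7A5 rose (1.16 at SE 0.15 and adjusted p = 9.66e-06) and SLC7A8 fell (−2.46 at SE 0.11 and adjusted p = 9.73e-11). SLC1A5 and SLC7A1 were steady. Of 35 serine, glycine and one-carbon genes 14 fell and 7 rose, with DDIT3, ATF5 and TRIB3, factors of the stress response, higher by 2.38, 1.37 and 1.13, and PSAT1, SHMT2 and MTHFD2 steady. Of 37 purine, pyrimidine and polyamine genes 19 fell and 4 rose. ODC1, the first step of polyamine synthesis, rose to 472 CPM at day 4 against 142 CPM at day 0 and HPRT1, which salvages purines, fell to 18.1 CPM at day 4 against 37 CPM at day 0. GAD1, which makes GABA, had 25.6 ± 7.74 CPM at day 4 and 0.238 ± 0.0628 CPM at day 0 (6.65 at SE 0.37 and adjusted p = 1.35e-09). Among 40 metal handling genes 13 rose and 14 fell. SLC40A1, the iron exporter ferroportin, had 13.2 ± 1.35 CPM at day 4 and 0.0484 ± 0.0685 CPM at day 0, and MT2A and MT1X, metallothioneins with shared sequence, moved apart (1.44 and −1.97).

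**Figure D4:**
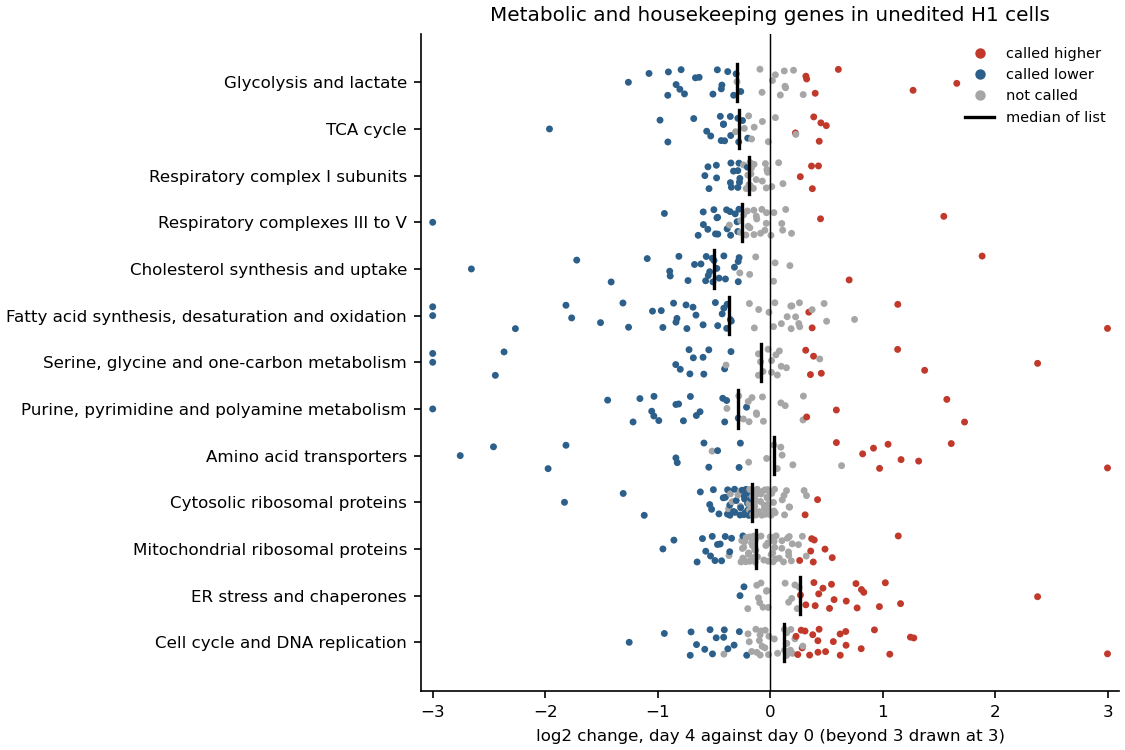
Log2 change at day 4 against day 0 of every tested member of 13 metabolic and housekeeping lists in unedited H1 cells; each point is a gene, coloured by the test, and black bars are medians. Medians run from −0.50 for cholesterol genes to 0.27 for chaperones and stress genes of the endoplasmic reticulum, and most ribosomal points lie near 0.

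Cell cycle genes moved in both directions, and cytosolic ribosomal genes were more often lower than higher. Of 66 cell cycle genes 33 were steady, 22 rose and 15 fell, with TOP2A, MCM7 and CCNB1 among the steady. In this and the ribosomal counts a steady gene that was also called is counted in both classes. The called share of the cell cycle genes was 56.1%, near the 49.6% of all features. The higher cell cycle genes numbered 14 (WT day 0 replicate 1 left out). The lower ones numbered 9 (WT day 4 replicate 1 left out). The inhibitors CDKN2B and CDKN1C rose to 2.42 CPM at day 4 against 0.30 CPM at day 0 and 12.7 CPM at day 4 against 5.2 CPM at day 0, and CCNE1, cyclin E1, fell to 24.5 CPM at day 4 against 47.2 CPM at day 0. Of 86 cytosolic ribosomal protein genes 57 were steady, 34 fell and 2 rose (median −0.16), and of 75 mitochondrial ribosomal genes 48 were steady. RPL13A had 161 and 165 CPM in the day 4 libraries, against 407 and 400.5 CPM in the day 0 libraries. RPL22L1, a paralog of RPL22, had 32.6 and 38.5 CPM in the day 4 libraries, against 113 and 140.3 CPM in the day 0 libraries. Both fell (−1.31 at SE 0.086 and adjusted p = 8.44e-09 and −1.83 at SE 0.15 and adjusted p = 9.93e-08), but ribosomal pseudogenes can share their reads. The lower cytosolic ribosomal genes numbered 16 (WT day 4 replicate 1 left out), 20 (WT day 4 replicate 2 left out), 18 (WT day 0 replicate 1 left out) and 22 (WT day 0 replicate 2 left out). The higher ones numbered 0 (WT day 4 replicate 2 left out), 1 (WT day 0 replicate 1 left out) and 5 (KO1 day 0 replicate 1 or KO1 day 0 replicate 2 left out). EEF2, a translation elongation factor, fell to 3022 CPM at day 4 against 4583 CPM at day 0. Of 35 chaperone and endoplasmic reticulum stress genes 18 rose and 2 fell (median 0.27). The lower ones numbered 0 (WT day 4 replicate 1 left out) and 1 (WT day 0 replicate 2 left out). Of 49 apoptosis and p53 target genes 21 rose and 6 fell, with BTG2 higher by 2.61. The lower ones numbered 3 (WT day 4 replicate 1 left out).

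ZNF genes, which mostly code for zinc finger transcription factors, rose in small steps. Of 505 tested 184 rose and 33 fell (median 0.25), but 17 of the gains and 6 of the losses reached 1 on the log2 scale. ZNF518B had 50.1 ± 6.26 CPM at day 4 and 15.6 ± 0.419 CPM at day 0. Clock genes fell in 13 of 23 and rose in 2. PER3, a period protein, had 3.05 and 2.58 CPM in the day 4 libraries, against 25.2 and 25.1 CPM in the day 0 libraries. BHLHE40, a repressor of clock and hypoxia genes, had 53.7 and 41.2 CPM in the day 4 libraries, against 3.58 and 4.52 CPM in the day 0 libraries. PER3 fell (−3.16 at SE 0.18 and adjusted p = 1.65e-09) and BHLHE40 rose (3.52 at SE 0.29 and adjusted p = 9.27e-08), and CLOCK, CRY1 and CRY2 were steady. DNA methylation and polycomb genes were even, 12 higher and 12 lower of 44, a called share of 54.5% near the 49.6% of all features. DNMT3B, a de novo DNA methyltransferase, had 964 and 1119 CPM in the day 4 libraries, against 2205 and 2260.1 CPM in the day 0 libraries. KDM6B, a histone H3 lysine 27 demethylase, had 56.9 and 48.1 CPM in the day 4 libraries, against 5.42 and 6.64 CPM in the day 0 libraries. DNMT3B fell (−1.1 at SE 0.11 and adjusted p = 9.41e-07) and KDM6B rose (3.1 at SE 0.16 and adjusted p = 5.2e-10), while DNMT3A and the polycomb-linked RBBP4 were steady. Of 38 nuclear receptor genes 15 fell and 5 rose. The higher nuclear receptors numbered 10 (KO1 day 0 replicate 1 or KO1 day 0 replicate 2 left out). Of 29 imprinted genes 7 rose and 8 fell, among them DIO3, which inactivates thyroid hormone, at 31.7 CPM at day 4 against 0.203 CPM at day 0 and MEG3 at 1.7 CPM at day 4 against 8.1 CPM at day 0. The long noncoding RNA gene LINC00261, which lies near FOXA2, had 57.1 ± 4.27 CPM at day 4 and 0.216 ± 0.106 CPM at day 0.

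**Figure D5:**
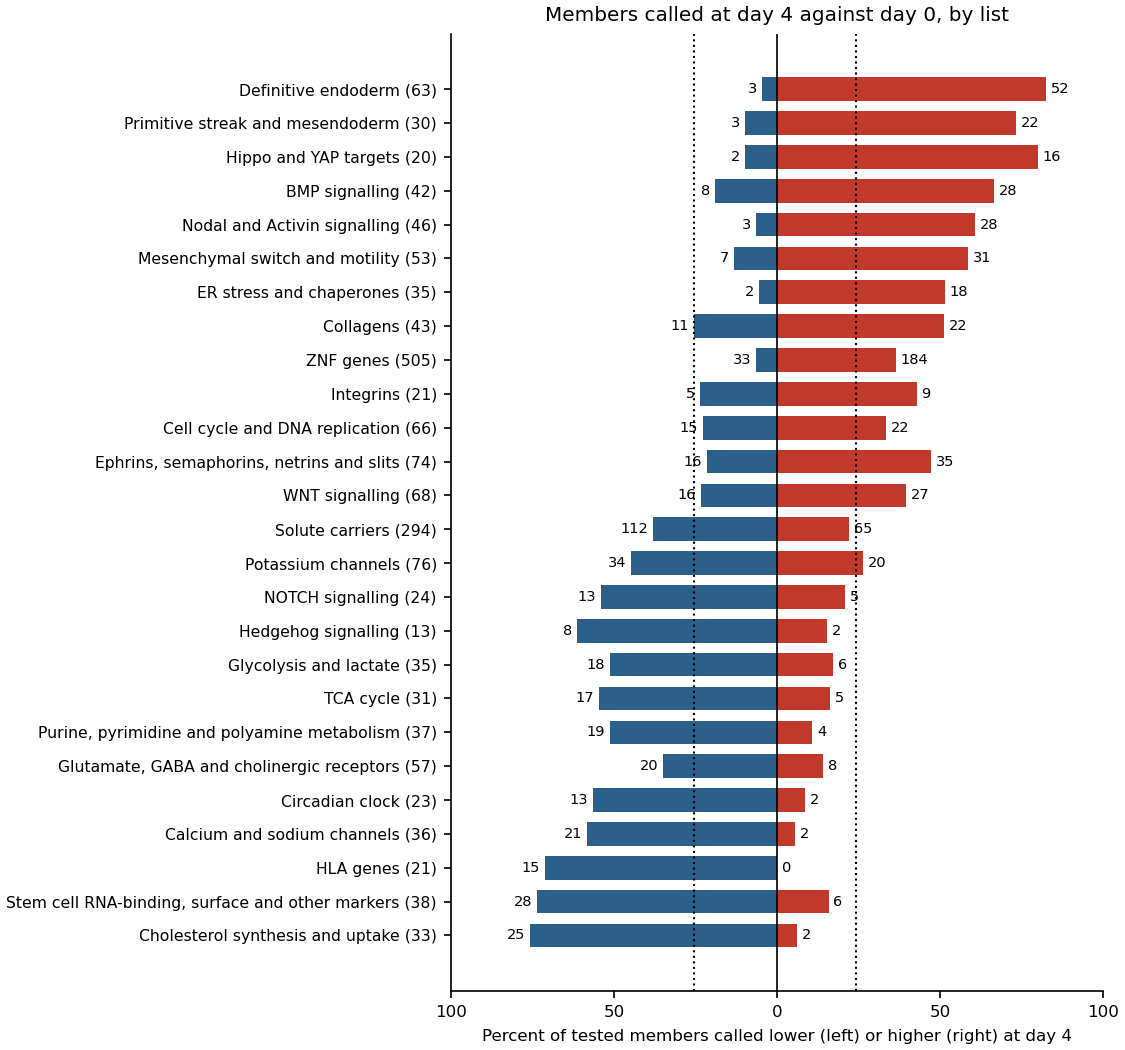
Percent of tested members called lower (bars to the left) or higher (bars to the right) at day 4 against day 0 in 26 lists and symbol families, with the number of members called at each bar end and the number tested in brackets. Dotted lines mark the shares among all features, 24.3% higher and 25.4% lower; the endoderm list reaches 52 of 63 higher and the cholesterol list 25 of 33 lower.

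Among 15399 gene symbols 25.2% were higher and 25.4% lower. Among 763 features that carry only a SCRIPTURE transcript assembly ID 10.9% were higher and 28.3% lower. A second kind of assembly ID had 14.7% higher and 26.7% lower among 225 features. Among 285 LOC names 18.9% were higher and 14.4% lower. The median level was 1.79 CPM for the SCRIPTURE IDs, 1.23 CPM for the second kind and 2.55 CPM for the LOC names. It was 24.2 CPM for the symbols, so depth differs between the kinds as well. The CPM gained or lost was spread over many genes. The 15 symbols with the largest gains, which include CER1, SERPINB9, SLC7A5, CNTNAP2 and COL5A2, held 14.1% of the summed gain of 3885 symbols. The 15 with the largest losses, which include CD24, EEF2, DNMT3B, MFGE8 and LDHB, held 11.9% of the summed loss of 3914.

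The change between the days was also set against that of the edited clones, as the WT change minus the mean of the KO1 and KO2 changes. It differed in 2288 features (13.6%), higher in 1220 (7.27%) and lower in 1068 (6.36%) for WT. Values given for the clones are means of both, which can hide a difference between KO1 and KO2. TNC had 473 CPM in KO1 and 139 CPM in KO2 at day 4, against 18.5 and 18.4 CPM at day 0. Whether a difference from WT was shared by both clones was not tested here. CXCR4 changed by 6.53 in WT and by 3.5 on average in the clones (difference 3.03, SE 0.31, adjusted p = 2.39e-05). GSC changed by 7.9 in WT, or 8.93 (WT day 0 replicate 2 left out), and by 4.43 in the clones (difference 3.48, SE 0.73, adjusted p = 0.00617). CYP26A1 changed by 6.74 in WT and 4.4 in the clones (difference 2.34, SE 0.17, adjusted p = 2.66e-06). EOMES changed by 9.85 in WT and 8.6 in the clones, a difference that did not pass (difference 1.26, SE 0.57, adjusted p = 0.158). These counts moved with single libraries. Without KO1 day 0 replicate 1 they were 2362 higher and 2359 lower, without KO1 day 0 replicate 2 they were 1956 and 1795, without WT day 4 replicate 1 they were 592 and 347, and without WT day 0 replicate 2 they were 525 and 336. The lower features numbered 565 without WT day 4 replicate 2 and 631 without WT day 0 replicate 1. KO1 day 0 is the pair whose replicates differ most, with a chi-square per gene of 22.0 against 3.64 for WT day 4 and 4.11 for WT day 0, and its part in the counts was not tested beyond these values.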

How the data were processed

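The deposited values are raw counts of reads per feature, deposited by the authors. The submitters' processing notes list Bowtie2 2.1.0, HTSeq 0.6.1 and the hg19 build. Libraries came from a stranded poly(A) kit, per the labels. How strand was treated in counting, and the annotation used, is not given in the sources used here. Reads of overlapping genes on opposite strands may therefore be mixed. DIGIT is not analysed here, since no feature carried that name.

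The 5 lines of reads with no gene were dropped from each file. Over the 12 libraries reads with no feature made up 29.2 to 30.5% of all reads listed, those of low quality 19.3 to 22.2% and ambiguous ones 1.17 to 1.41%. Of 54435 features 28251 had counts and 16792 passed edgeR's filterByExpr. edgeR 4.0.16 (R 4.3.3) fitted a quasi-likelihood model to 12 libraries in 6 groups with TMM factors, leaving 6 residual degrees of freedom, and p values were adjusted by Benjamini-Hochberg over all 16792. A log2 change is given with its standard error (SE), its size divided by the square root of F. CPM are counts per 1000000 of the TMM-scaled total, and ± is the SD of 2 libraries. For a gene with 0 counts on a day the fold is a bound against a floor of 3 counts, and for 1 to 3 counts a ratio with its exact 95% counting interval; both cover counting error only. The floor is 0.193 to 0.291 CPM in a WT library. On simulated counts for 16339 features 77% of planted 2-fold and 88% of planted 4-fold changes between the WT days were recovered, and 7.82% of calls were false. The planted changes, 100 of each size, were put only in features with at least 100 counts over the 12 libraries. No other feature was changed between the days. These rates were not tested for sparser features or where as many features change as in the real data.

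The comparison, the 46 gene lists and the 50 symbol families were chosen with earlier results of these data known. Genes named are the label's markers, the 30 largest log2 changes and 15 largest CPM differences each way, up to 6 called members each way and 6 steady members of a list, and all members of lists with up to 15. Other members are named for their role, chosen after their values were seen. Alternatives were other scaling factors, filters, DESeq2 1.42.0, the WT libraries alone, a replicate block and single WT or KO1 day 0 libraries left out. Promoter letters come from the RefSeq table on GRCh38.p14, matched by symbol, while the counts are on hg19, so no other coordinates are given. Figures used matplotlib 3.10.9.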

Additional observations from a re-analysis of the deposited data

Results flagged for a closer look

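The change between the days differed between WT and the mean of the KO1 and KO2 clones in 1220 features with a larger log2 change in WT and in 1068 with a smaller one, by a test of the difference itself in edgeR. Of 89 genes with the largest changes or CPM differences in WT, 25 differed in this test and 15 of them by at least 1 on the log2 scale, 13 with a larger and 2 with a smaller value in WT. The difference, as the WT change minus the mean change of the clones, was 3.03 for CXCR4, 3.48 for GSC, 2.34 for CYP26A1, 3.78 for PLCE1, 1.15 for COL6A1 and 2.0 for SFRP1. These 6 passed under all 12 settings that give this difference. None of those settings left out a KO1 day 4 or a KO2 library, so dependence on those libraries was not tested. For SFRP1 the change was −0.81 in WT and −2.82 on average in the clones, so the gene fell less in WT than in the mean of the clones. COL6A1 rose by 2.58 in WT and by 1.43 on average in the clones.

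The other 9 lost the call when some single library was left out. They were CER1 (1.52), SOX17 (2.37), GATA6 (3.41), ANKRD1 (4.1), BDKRB2 (2.27), LEFTY2 (1.64), SERPINB9 (1.4), SEZ6 (−2.19) and TAGLN (−1.01). Over single libraries left out, the highest adjusted p among the losses was 0.239 for CER1 (without WT day 0 replicate 2), 0.0781 for SOX17 (without WT day 0 replicate 2), 0.147 for GATA6 (without WT day 0 replicate 1), 0.0747 for ANKRD1 (without WT day 0 replicate 2), 0.167 for BDKRB2 (without WT day 0 replicate 2), 0.137 for LEFTY2 (without WT day 0 replicate 2), 0.0926 for SERPINB9 (without WT day 4 replicate 1), 0.204 for SEZ6 (without WT day 4 replicate 1) and 0.161 for TAGLN (without WT day 4 replicate 2). With DESeq2 the call was also lost for CER1 (adjusted p = 0.123), GATA6 (0.0851) and TAGLN (0.129). For GATA6 the difference was 2.74 without WT day 0 replicate 1 and 5.89 without WT day 0 replicate 2. Fitted values of GATA6 and ANKRD1 rest on 1 and 2 counts over the WT day 0 libraries and are no bound. WT is 1 unedited line and each clone 1 edited line, so the effect of editing and the differences between lines cannot be told apart.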

How the results depend on the processing

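The counts of higher and lower features between the days stayed within 1.5 times of 4075 and 4257 under all 14 settings tried. They were 3619 and 4719 with upper-quartile factors, 3598 and 3669 with DESeq2, and 4440 and 4581 with the 4 WT libraries alone. Leaving out 1 library gave 3285 to 4993 higher and 3192 to 4841 lower features; a day left with 1 library is assumed to vary like the other groups. The difference between replicates 1 and 2 correlated at 0.059 over features between the 2 days, within the −0.040 to 0.155 of all pairs of groups. With 1 such difference a day, this cannot show whether libraries with the same replicate number were handled together. With the replicate block 4226 were higher and 4387 lower in 12 libraries, and 4777 and 4893 in the WT libraries alone. The difference between WT and the clones moved more. Leaving out 1 WT or KO1 day 0 library gave 525 to 2362 larger changes in WT (1220 in all) and 336 to 2359 smaller ones (1068), with the highest counts without KO1 day 0 replicate 1 and the lowest without WT day 0 replicate 2. That difference could not be computed from the WT libraries alone. Of 188 called genes named in the report, 178 kept their call under all 14 settings, none changed sign with a call on either side, and 10 lost it under some. DESeq2 moved 12 of 192 list counts by over 1.5 times, upper-quartile factors moved 5 and the RLE factors none, while leaving out a library moved 6 to 30. Depth limited the call of steady genes, which 186 of 6228 features under 10 CPM met.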
